A study of Mus musculus with 36 samples.

Results

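The genes described here encode the subunits of the ionotropic and metabotropic glutamate receptors, the delta receptors and the GABA-A receptors. The rule took them by symbol, as every protein-coding autosomal gene of the mm10 annotation (GENCODE) whose symbol belongs to the Gria, Grik, Grin, Grid, Grm or Gabr families. Earlier results of these data were known when the families were chosen. The rule found 41 of 20807 genes, made up of 3 AMPA, 5 kainate, 7 NMDA, 2 delta and 8 metabotropic subunit genes for glutamate and 16 GABA-A subunit genes. K27me3 and K4me3 peaks came from ChIP-Seq of whole pancreata of 12 mice, 3 of each of 4 genotypes, taken 22 days after tamoxifen gavage at 2 to 4 months of age. The genotypes are wildtype (WT), Mist1creERT/+ with deletion of the *Ezh2* SET domain (EZ), Mist1creERT/+ with a further Cre-activated allele that is not named here (KR) and Mist1creERT/+ with both changes (KE), all on a C57BL/6 background and all given tamoxifen. Mist1creERT is active in acinar cells, so the other cells of the pancreas kept an intact *Ezh2* gene. The comparisons ask how the KR allele (KR against WT), loss of the EZH2 SET domain (EZ against WT) and that loss on the KR background (KE against KR) relate to the marks on these genes. The WT mice are labeled wildtype, so Mist1creERT/+ cannot be told apart from the other changes in the comparisons with WT.

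K27me3 is the trimethyl mark placed on histone H3 by the Polycomb repressive complex that holds EZH2, and it is found over silent developmental and lineage genes, often at promoters rich in CpG. K4me3 marks the start of genes that are active or ready for transcription. AMPA, kainate, NMDA and GABA-A receptors are ion channels built from several subunits, metabotropic glutamate receptors signal through G proteins, and most of their genes are used by neurons, while acinar cells make digestive enzymes. The tissue is a mixture, so a peak in a small share of cells and a weak peak in most cells cannot be told apart, and both marks at a gene may lie in different cells or on different alleles.

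The bases just upstream of 6 member genes are shown because these genes carry the main patterns of marks, with each CG dinucleotide (read the same on both strands) in capitals. At a TSS, *Gria2* had K27me3, *Grm8* had both marks and *Grm6* had K4me3 alone in every mouse. *Gabra5* and *Grik3* had K27me3 at the start in part of the mice, and *Gabra6* had the most K27me3 over its length. The sequences are from RefSeq (GRCm38.p6, the build of the peaks), 5' to 3' on the strand of the gene, and lie at *Gria2* chr3:80802836-80803085 (minus strand), *Grm8* chr6:28135179-28135396 (minus strand), *Grm6* chr11:50850435-50850684 (plus strand), *Gabra5* chr7:57510060-57510309 (minus strand), *Grik3* chr4:125490446-125490695 (plus strand), *Gabra6* chr11:42321073-42321322 (minus strand).
Gria2: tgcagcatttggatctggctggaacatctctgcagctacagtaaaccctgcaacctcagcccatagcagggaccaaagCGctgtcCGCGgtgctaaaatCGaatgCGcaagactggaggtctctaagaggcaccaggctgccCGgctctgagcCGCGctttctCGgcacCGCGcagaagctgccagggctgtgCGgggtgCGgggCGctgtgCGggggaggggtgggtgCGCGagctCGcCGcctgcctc
Grm8: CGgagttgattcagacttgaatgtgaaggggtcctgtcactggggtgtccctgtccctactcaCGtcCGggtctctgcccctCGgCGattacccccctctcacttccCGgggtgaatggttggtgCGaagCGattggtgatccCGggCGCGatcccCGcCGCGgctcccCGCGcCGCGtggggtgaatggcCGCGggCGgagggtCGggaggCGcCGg
Grm6: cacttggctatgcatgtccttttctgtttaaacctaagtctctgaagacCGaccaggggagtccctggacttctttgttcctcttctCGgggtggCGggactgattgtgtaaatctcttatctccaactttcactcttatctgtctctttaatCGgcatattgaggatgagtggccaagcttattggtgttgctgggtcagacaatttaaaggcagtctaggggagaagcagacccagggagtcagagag
Gabra5: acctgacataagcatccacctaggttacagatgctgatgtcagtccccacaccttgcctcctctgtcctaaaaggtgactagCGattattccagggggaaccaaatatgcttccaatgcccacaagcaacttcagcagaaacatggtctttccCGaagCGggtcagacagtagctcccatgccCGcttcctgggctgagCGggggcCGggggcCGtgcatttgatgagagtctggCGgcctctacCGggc
Grik3: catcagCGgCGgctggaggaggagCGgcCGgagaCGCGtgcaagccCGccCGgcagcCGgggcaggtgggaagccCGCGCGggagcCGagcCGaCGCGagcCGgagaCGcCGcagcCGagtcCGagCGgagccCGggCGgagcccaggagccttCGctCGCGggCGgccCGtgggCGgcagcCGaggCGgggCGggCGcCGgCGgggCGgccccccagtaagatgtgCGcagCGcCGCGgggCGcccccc
Gabra6: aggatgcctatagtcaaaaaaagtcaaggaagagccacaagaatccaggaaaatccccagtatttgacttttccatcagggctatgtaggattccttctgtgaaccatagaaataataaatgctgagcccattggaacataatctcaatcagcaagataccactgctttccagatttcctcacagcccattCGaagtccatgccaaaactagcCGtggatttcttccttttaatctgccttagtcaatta
Of the 41 genes, 27 matched the RefSeq table, with 33 starts. CG was present in the 250 bases before every one of these starts, against 92.4% of 31396 autosomal starts, with a median of 8 per start against 6. *Grik3* had the most, 42, and *Gabra6* had 2. *Grm6*, with K4me3 in all mice, had 4. At least 20 CG were found at 5 of the 33 starts, against 18.4% of all autosomal starts. By a wider rule (any 500 bp window from 500 bp before to 2 kb after the gene start with GC of at least 55% and an observed to expected CpG ratio of at least 0.6), 29 of the 41 genes (70.7%), *Grm6* among them, had a CpG-rich promoter, against 59.4% of all genes.

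The lists give positions only and no height or read number, so the depth of each library is unknown. WT replicate 2 stood apart. Its K27me3 list was the shortest, with 15782 autosomal peaks against 18455 to 29041 in the other mice, 11.7% of these peaks touched a K4me3 peak (0.693% to 4.39% in the others), and K27me3 lay at 25.6% of CpG-rich genes (4.64% to 14.1%). The 3 KR mice and EZ replicate 2 had 10 to 35 K27me3 peaks on the X chromosome, the other 8 mice had 5637 to 7367, and the same 4 mice had K4me3 at each of 4 Y genes examined, where the others had none. By these peaks all KR mice differed in sex from all WT and KE mice, whereas the study's methods state that each genotype included both sexes. If the peaks are right, genotype and sex cannot be told apart in KR against WT and in KE against KR. All 11 acinar markers tested (*Cpa1*, *Cel* and *Ptf1a* among them) had K4me3 in all mice, and K27me3 was found at none of them outside WT replicate 2, which had 4. Peak lists do not show the *Ezh2* deletion or the KR allele, so the genotypes rest on the labels.

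The receptor genes had K27me3 within 3 kb of a TSS far more often, and K4me3 far less often, than protein-coding genes at large. In the WT mice 17, 21 and 18 of the 41 genes had K27me3 there, in EZ 21, 20 and 21, in KR 22 in each mouse, and in KE 23, 24 and 18. This is 41.5% to 58.5% of the members, where the share of all genes was 9.03% to 16.1% in 11 mice and 22.9% in WT replicate 2. K4me3 was found at 11, 6 and 10 members in WT, 11 in each EZ mouse, 7, 9 and 10 in KR, and 9, 12 and 11 in KE. These counts are 14.6% to 29.3% of the members, against 61.8% to 64.8% of all genes. The members lay above the background for K27me3 and below it for K4me3 in each of the 12 mice.

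**Figure D1:**
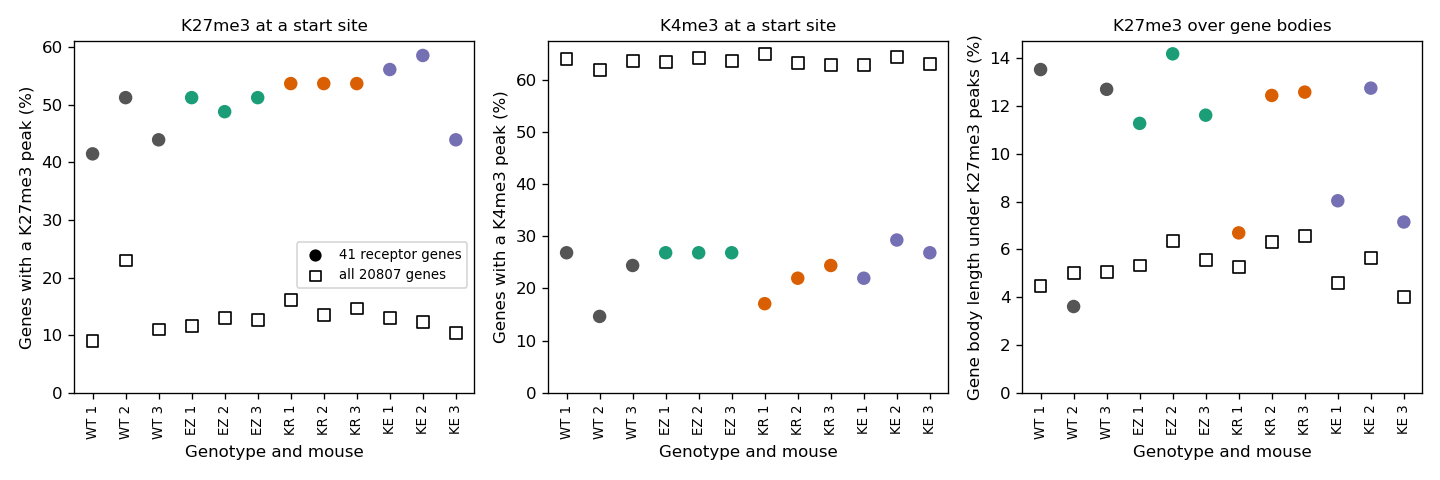
Share of genes with a K27me3 peak (left) or a K4me3 peak (middle) within 3 kb of a TSS, and share of gene body length under K27me3 peaks (right), in each of the 12 mice, for the 41 receptor genes (filled circles, 1 colour per genotype) and all 20807 genes (open squares), in percent. The receptor genes lie above all genes for K27me3 at the start and below for K4me3 in every mouse, and in the right panel WT replicate 2 is the 1 mouse where they lie below.

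The members are long genes, with a median length of 138 kb against 17.6 kb, and a longer gene with more annotated starts has more room for a peak. Among the 2372 genes of at least 100 kb, K27me3 lay at a TSS of 15.9% to 30.5% in 11 mice and of 41.3% in WT replicate 2, below the members' share in the same mouse each time. K4me3 lay at 71.3% to 77.5% of these long genes. CpG-rich members had K4me3 in 24.4% of gene and mouse pairs, against 89.1% for CpG-rich genes at large, and K27me3 in 55.7% against 10.5%. Members without a CpG-rich promoter had K27me3 in 38.2% of pairs, against 17.5% for such genes at large, and K4me3 in 22.9%, close to the 25.9% of such genes. The part that length, CpG content and neuronal use each play was not tested.

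K27me3 was present at a TSS in all 12 mice at 7 members (17.1%), among them *Gria2*, *Grik2*, *Grm5*, *Grm8* and *Gabra2*, against 3.28% of all genes and 8.12% of CpG-rich genes of at least 100 kb. It was found in no mouse at 7 members (17.1%, against 66.7% of all genes). K4me3 was present in all 12 mice at 6 members (14.6%, against 58.2%) and in none at 25 (61.0%, against 31.9%). The members with neither mark at a TSS in any mouse were *Gria4*, *Grin3b* and *Gabrr3*. Across the 12 mice, 9 members kept the same state, as the map of calls shows, and 32 were found in more than 1.

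**Figure D2:**
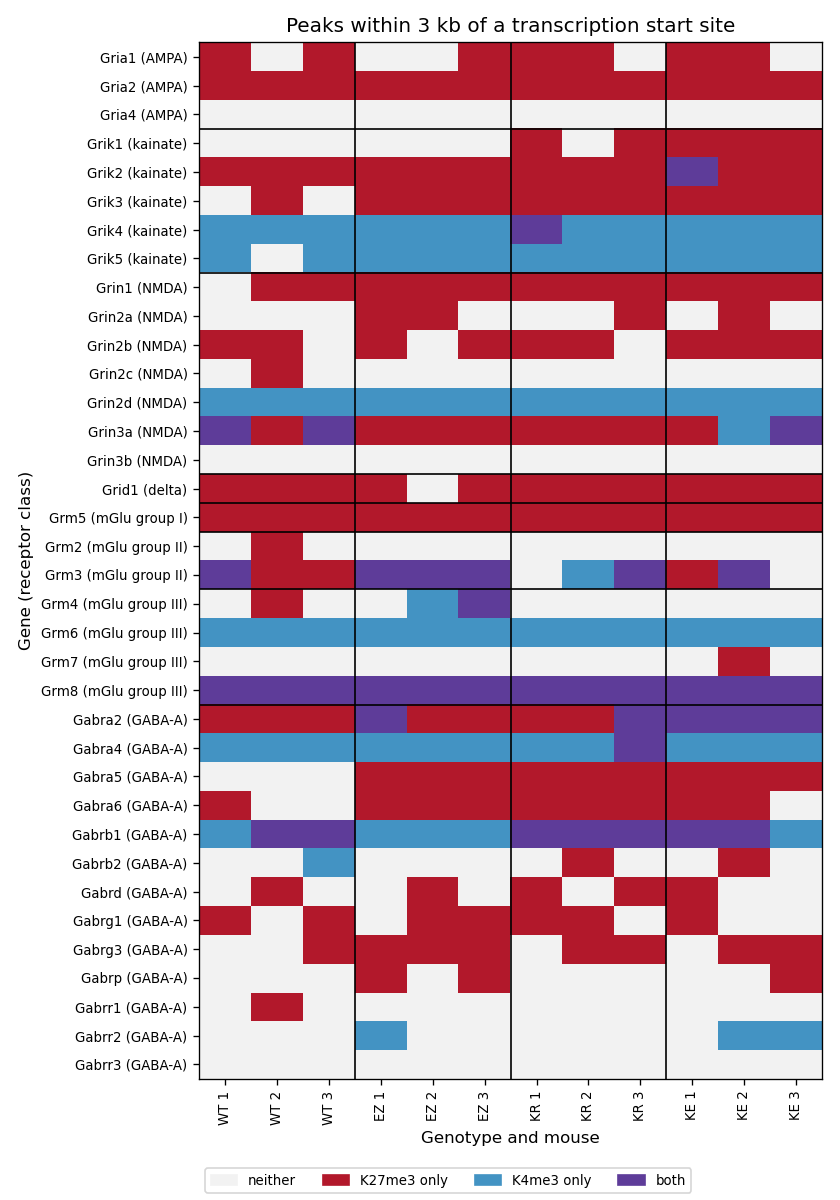
Peaks within 3 kb of a TSS of 36 of the 41 receptor genes (rows, grouped by receptor class) in each mouse (columns, grouped by genotype): K27me3 only (red), K4me3 only (blue), both (purple) or neither (pale). Grm5 and Gria2 are red and Grm6 is blue throughout, Grm8 is purple in all 12 mice, and Gabra5 is pale in the 3 WT mice and red in the other 9.

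Among the AMPA receptor genes, *Gria2*, whose subunit limits the calcium flow of the channel, had K27me3 at the start in all 12 mice and K4me3 in none. The peak lay over the gene start itself in each mouse. *Gria1* had K27me3 at a TSS in 7 mice, spread over all genotypes, and *Gria4* in none. At *Gria1* it was called at the gene start in 1 mouse and at a TSS 165 kb inside the gene in 6. None of the 3 AMPA genes had K4me3 at a TSS in any mouse.

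The kainate receptor genes fell into separate patterns. *Grik1*, *Grik2* and *Grik3*, which encode the low-affinity subunits, had K27me3 at a TSS in 5, 12 and 10 mice, and K4me3 in none, 1 and none. *Grik4* and *Grik5*, which encode the high-affinity subunits, had K4me3 in 12 and 11 mice and K27me3 in 1 and none. At *Grik4* the K4me3 peak covered its own TSS in all 12 mice, with a median width of 1490.5 bp. At *Grik5* the peak also covered the TSS of the neighboring *Zfp574*, a zinc finger gene, in all 11 mice, so that the mark cannot be assigned to either gene. *Grik5* lacked the peak in WT replicate 2 alone.

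*Grin1*, which encodes the subunit common to all NMDA receptors, had K27me3 at a TSS in 11 mice, the exception being WT replicate 1. Of the glutamate-binding Grin2 subunits, *Grin2b* had K27me3 in 9 mice, *Grin2a* in 4 and *Grin2c* in 1, WT replicate 2. *Grin2d* was called for K4me3 in all 12 mice, but the peak never covered a TSS of *Grin2d* and in each mouse covered that of *Kdelr1*, the gene for an ER retention receptor. *Grin3a*, a subunit that lowers calcium flow, had K27me3 in 11 mice and a narrow K4me3 peak (median 501 bp, the narrowest width in the lists) in 4. Its K4me3 was present in WT replicates 1 and 3 and KE replicates 2 and 3 and in none of the EZ and KR mice. *Grin3b* had neither mark.

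*Grid1*, a delta receptor gene, had K27me3 at a TSS in 11 mice, the exception being EZ replicate 2, and K4me3 in none.

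The group I metabotropic receptor gene *Grm5*, whose product couples to phospholipase C, had K27me3 in all 12 mice and K4me3 in none. In group II, *Grm2* had K27me3 in WT replicate 2 alone, and *Grm3* had K27me3 in 9 mice and K4me3 in 7, with both in 6, all 3 EZ mice among them. Group III, which like group II lowers cyclic AMP, held 2 members with K4me3 over their own TSS in every mouse, *Grm6* and *Grm8*. *Grm6*, the receptor of retinal ON bipolar cells, had K4me3 peaks of median width 2151 bp and no K27me3 at a TSS in any mouse. K27me3 lay over part of the *Grm6* body in 7 mice, up to 23.2% of its length. Its K4me3 covered 21.2%, 19.6% and 13.8% of the TSS windows in WT, 21.5%, 19.8% and 19.1% in EZ, 17.1%, 15.0% and 14.7% in KR, and 17.1%, 18.3% and 15.1% in KE. The genotypes overlapped except that EZ lay above KR and KE. *Grm4* and *Grm7* had K27me3 in 2 mice and 1 mouse.

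*Grm8* (chr6:27275119-28135178, minus strand) was the 1 member with both marks at a TSS in all 12 mice, a state found at 109 of all 20807 genes and at 35 of the 1823 CpG-rich genes of at least 100 kb. Its K4me3 peak was narrow, with a median width of 1355.5 bp, and covered the gene start in each mouse. K27me3 covered the gene start in WT replicate 2 and KR replicate 1, and in the other 10 mice the nearest K27me3 peak began 0.1 to 8.1 kb away. Bases under both marks were found in 4 mice (WT replicates 2 and 3, KR replicate 1 and KE replicate 1), from 272 to 1295 bp. In the remaining 8 mice the K27me3 peaks lay on either side of the K4me3 peak, as the peak maps show. In WT replicate 1 they lay far from it, ending 12.4 kb upstream and beginning 8.1 kb downstream of the gene start. Both marks were called within 3 kb of the same TSS in 11 mice, WT replicate 1 being the exception. K27me3 covered 25.6%, 8.03% and 33.2% of the gene body in WT, 27.4%, 34.0% and 30.9% in EZ, 11.7%, 23.8% and 23.1% in KR and 22.4%, 30.7% and 21.5% in KE, with overlap between all genotypes except EZ and KR.

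The GABA-A receptor genes had K27me3 at a TSS in 49.0% of gene and mouse pairs. It was called in at least 1 mouse at 14 of 16 and in none at 2, where 66.7% of all genes had it in none, and in all 12 mice at *Gabra2* alone. *Gabra2*, the gene of a synaptic alpha subunit, had K4me3 in all 3 KE mice, 1 EZ mouse, 1 KR mouse and no WT mouse. The gamma subunit genes *Gabrg1* and *Gabrg3* had K27me3 in 7 and 8 mice. *Gabrd*, whose delta subunit sits outside synapses, had it in 5. Of the rho genes, which are known from retina, *Gabrr1* had K27me3 at a TSS in WT replicate 2 alone, and *Gabrr2* and *Gabrr3* in no mouse. The body of *Gabrr3* lay partly under K27me3 peaks in all 12 mice, from 8.75% to 38.9% of its length. *Gabrp*, the gene of the pi subunit of epithelial tissues, had K27me3 at a TSS in 3 mice.

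*Gabra4* and *Gabrb1* (chr5:71569749-71658308 and chr5:71658113-72149037) lie on opposite strands and overlap at their 5' ends, with gene starts 195 bp apart. Both had K4me3 in all 12 mice. The peak covered both gene starts in 11 mice, and in WT replicate 2 it covered that of *Gabrb1* and lay 0.155 kb from that of *Gabra4*. They count as 2 members but share this region. K27me3 was called at a TSS of *Gabrb1* in 7 mice (none in EZ, all 3 in KR) and at *Gabra4* in KR replicate 3 alone, over 82 bp of its window. At *Gabrb1* it lay near a second TSS inside the gene, which had a K4me3 peak of its own in the peak maps, while the nearest K27me3 to the first start was 3.1 to 230 kb away. Bases under both marks were found in WT replicate 2, KR replicate 1 and KE replicate 1.

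Members also share neighborhoods. With gaps under 1 Mb joined, the 41 genes lay in 32 loci, and 13 GABA-A genes lay in 4 of them, with *Gabrg1*, *Gabra2*, *Gabra4* and *Gabrb1* on chromosome 5, *Gabrg3* and *Gabra5* among those on chromosome 7, *Gabra6* and *Gabrb2* among those on chromosome 11, and *Gabrr1* and *Gabrr2* on chromosome 4. Neighbors did not share 1 state. On chromosome 5, *Gabra2* had K27me3 in all 12 mice, *Gabra4* in 1, and K4me3 in 5 and 12.

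The number of members with K27me3 at a TSS was 18.7 ± 2.08 in WT, 20.7 ± 0.577 in EZ, 22 ± 0 in KR and 21.7 ± 3.21 in KE (SD, n = 3 mice each). KR exceeded WT by 3.33 genes, with all 3 KR mice above all 3 WT mice, at the smallest p that 3 mice against 3 allow (0.1, exact two-sided permutation test, 1.0 after Benjamini-Hochberg adjustment over 12 comparisons). The share of all genes was also higher in KR (13.5% to 16.1%) than in WT replicates 1 and 3, and lower than in WT replicate 2. EZ exceeded WT by 2 genes (exact permutation p = 0.4) and KE differed from KR by -0.33 genes (exact permutation p = 1.0). With equal numbers of the widest peaks taken from each list, KR exceeded WT by 0.67 and EZ exceeded WT by 0.33. With the window for K27me3 widened to 100 kb on the upstream side, the differences were 2.67 for KR against WT, 0 for EZ against WT and -2.33 for KE against KR. The K27me3 lists held 22378 to 29041 autosomal peaks in KR and 15782 to 23954 in WT, and the part of list length in these counts was not tested further. KR and EZ are compared with the same WT mice.

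For K4me3 the number of members was 9 ± 2.65 in WT, 11 ± 0 in EZ, 8.67 ± 1.53 in KR and 10.7 ± 1.53 in KE (SD, n = 3 mice each). The differences were -0.33 for KR against WT, 2 for EZ against WT and 2 for KE against KR, with exact permutation p of 1.0, 0.4 and 0.3. Members with both marks numbered 3.67 ± 1.53, 4.33 ± 0.577, 4 ± 1.73 and 4.33 ± 0.577 (SD, n = 3) in the same order, with differences of 0.33 to 0.67 that were within the spread between mice. By mouse this was 4.88% to 14.6% of the members, against 1.59% to 6.07% of all genes in 11 mice and 11.7% in WT replicate 2, the 1 mouse where the members (4.88%) lay below all genes. Among genes of at least 100 kb the share was 5.99% to 15.9% in 11 mice and 25.2% in WT replicate 2, above the members' share in 5 mice and below it in 7.

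Few members switched state with genotype. A K27me3 peak at a TSS in all 3 mice of KR and in no WT mouse was found at 1 member (2.44%), *Gabra5*, against 0.245% of all genes. *Gabra5* was also the 1 member that met this rule for EZ against WT (0.202% of all genes), and *Gabra5* and *Grik1* met it for KE against WT (0.216%). *Gabrb1* met it for KR against EZ (0.308%) and *Grik1* for KE against EZ (0.0913%). At *Gabrb1* the second TSS lies 41.8 kb from the gene start, and the peak called in KR replicate 2 began at 44.5 kb. EZ replicates 1 and 3 had peaks from 46.5 and 47.4 kb, outside the 3 kb window. No member met the rule in either direction between KE and KR, where 0.101% of all genes had K27me3 in KE only and 0.322% in KR only. For K4me3, *Gabra2* met it for KE against WT (0.0673%). A count of 1 or 2 of 41 genes is too small to compare with these shares, and the 3 comparisons with WT share the same WT mice.

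*Gabra5* (chr7:57407672-57510059, minus strand), an alpha subunit gene known from hippocampus, had its nearest K27me3 peak 7.8, 69.4 and 12.4 kb from the gene start in WT. In EZ and KE a peak covered the start in every mouse, and in KR the distances were 1.05, 0 and 0 kb. The WT mice thus did not overlap with the other 9. The gene was not free of K27me3 in WT, since 36.4%, 0% and 35.1% of its body lay under peaks, against 37.9%, 30.9% and 20.6% in EZ, 15.0%, 50.2% and 35.4% in KR and 19.8%, 62.6% and 26.0% in KE. In limma the difference over the body was 9.72 percentage points for KR against WT (SE 15.1, adjusted p = 0.90). It includes the 0% of WT replicate 2, whereas WT replicates 1 and 3, at 36.4% and 35.1%, lay within the range of KR. With windows of 1 kb in place of 3 kb the start of KR replicate 1 was no longer called, and no member switched between KR and WT.

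*Grik1* (chr16:87895900-88290265, minus strand) had a K27me3 peak over the gene start in all 3 KE mice and in KR replicates 1 and 3, and KR replicate 2 had its nearest peak 68.8 kb away. The distances were 118.4, 448.1 and 11.1 kb in WT and 519.0, 8.1 and 475.8 kb in EZ. The KR and KE mice were thus closer than the WT and EZ mice, with KR replicate 2 as the exception. *Grik3* (chr4:125490700-125714173, plus strand) had K27me3 within 1.4 kb of its single start in 10 mice and 120.6 and 121.3 kb away in WT replicates 1 and 3. Without WT replicate 2, which had a peak over the start, *Grik3* joined *Gabra5* among the members with K27me3 in KR and EZ but not WT (1.24% and 0.663% of all genes). For K4me3, leaving out WT replicate 2 gave 2 members, *Grin3a* among them, in WT but not KR (0.269%) and *Grin3a* in WT but not EZ (0.192%).

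**Figure D3:**
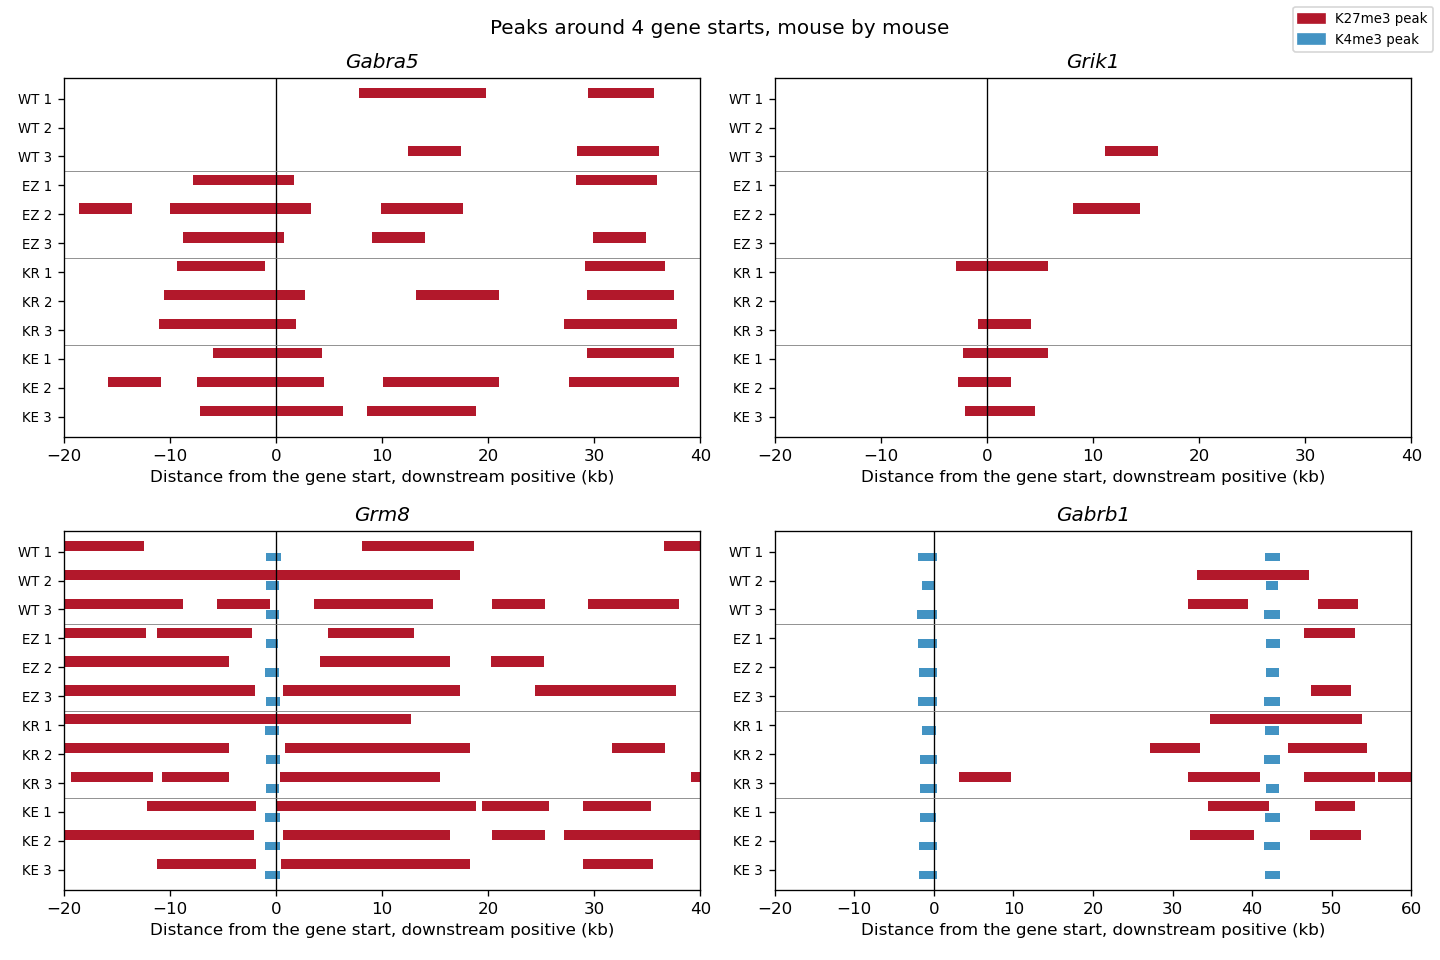
K27me3 peaks (red) and K4me3 peaks (blue) around the starts of Gabra5, Grik1, Grm8 and Gabrb1 in each mouse (rows, 3 per genotype), against distance from the gene start in kb, downstream positive. Gabra5 has a K27me3 peak over or within 3 kb of its start in the 9 EZ, KR and KE mice and none there in WT. K27me3 lies on either side of the narrow K4me3 peak of Grm8 in 8 mice and overlaps it in the other 4. In WT replicate 1 it lies 8.1 kb or more from the Grm8 start.

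Over whole gene bodies, K27me3 peaks covered 13.5%, 3.61% and 12.7% of the members' summed length in WT, 11.3%, 14.2% and 11.6% in EZ, 6.69%, 12.4% and 12.6% in KR, and 8.04%, 12.8% and 7.15% in KE. For all genes the share was 4.01% to 6.57%. The members lay above all genes in 11 mice and below in WT replicate 2, the mouse whose K27me3 was found most often at CpG-rich starts. The differences were 0.63 percentage points for KR against WT, 2.41 for EZ against WT and -1.26 for KE against KR (exact permutation p = 1.0, 0.8 and 1.0), all within the spread between mice. Without WT replicate 2 the first became -2.54 and the second -0.75.

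**Figure D4:**
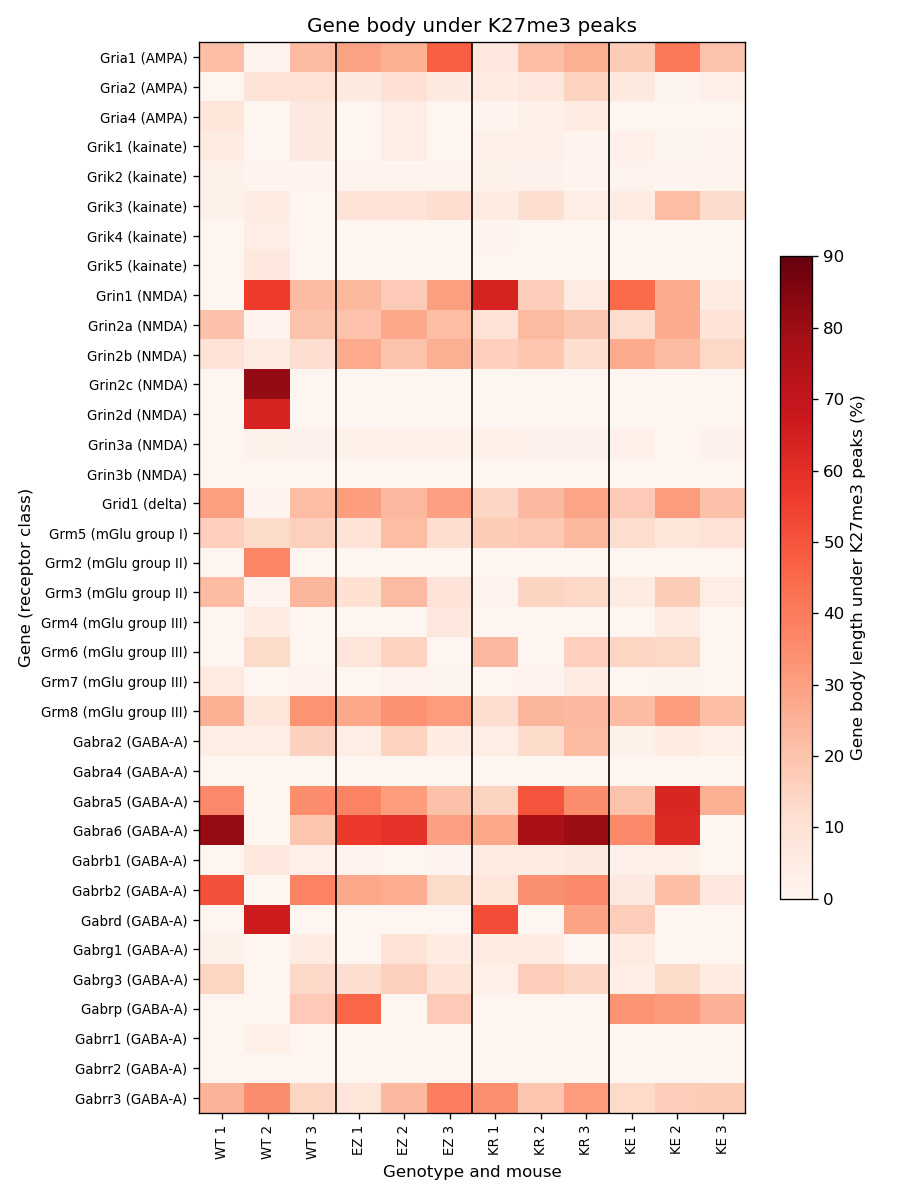
Percent of the gene body under K27me3 peaks for 36 of the 41 receptor genes (rows, grouped by receptor class) in each mouse (columns), on a color scale from 0 to 90%. Grin2c, Grin2d and Grm2 are covered in WT replicate 2 alone.

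The 5 members with the highest mean coverage over 12 mice were *Gabra6* (44.0%), *Gabra5* (30.8%), *Grin1* (26.0%), *Grm8* (24.4%) and *Gria1* (23.3%). *Gabra6*, known from cerebellar granule cells, is only 14.6 kb long (chr11:42306437-42321072), so that a few peaks fill it. Its coverage was 80.9%, 0% and 19.6% in WT, 56.8%, 59.1% and 29.8% in EZ, 27.6%, 76.7% and 80.0% in KR and 36.1%, 61.3% and 0% in KE, and all genotypes overlapped. *Grin1* had 0%, 56.0% and 22.3% in WT, 23.5%, 17.9% and 29.9% in EZ, 63.8%, 16.8% and 4.80% in KR and 44.8%, 26.9% and 4.87% in KE. Its highest values were those of WT replicate 2 and KR replicate 1, the mice with the largest shares of K27me3 peaks that touch K4me3. *Gria1*, an AMPA subunit gene, had 21.5%, 1.57% and 22.3% in WT, 29.5%, 25.3% and 47.7% in EZ, 6.75%, 21.5% and 25.8% in KR and 17.4% to 40.7% in KE. Every EZ mouse lay above every WT mouse at *Gria1*, by 19.1 percentage points on average (SE 10.4, limma unadjusted p = 0.096, adjusted p = 0.81). *Grin2c*, *Grin2d* and *Grm2* had 81.4%, 63.9% and 37.0% in WT replicate 2 and 0% in all other mice.

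Fitted by limma across all genes, no member passed an adjusted p of 0.05 in any contrast for either mark. Of the 41 members, 32 were covered by K27me3 in at least 3 mice and entered the test with 3984 genes. The share of genes called was 0.126% for KR against WT, 0.0251% for EZ against WT, 0.0753% for KE against KR and 0.0251% for the interaction, and an unadjusted p under 0.05 was found at 0 members (6.25% of all genes tested) for KR against WT, 1 (5.55%) for EZ against WT and 1 (5.15%) for KE against KR. Without WT replicate 2 these counts were 4 (13.2%), 2 (6.80%) and 2 (8.31%), and with array weights they were 2 (14.8%), 5 (13.1%) and 5 (9.84%). With any other mouse left out they were 0 to 2, beside 3.51% to 7.76% of all genes tested. The median difference of the members was 2.21 percentage points for KR against WT, beside 4.35 for all genes tested. It was 1.16 beside 1.96 for EZ against WT and -1.90 beside -3.09 for KE against KR. Without WT replicate 2 the members' median turned to -0.822 for KR against WT and -0.393 for EZ against WT, beside 6.08 and 3.34 for all genes tested. For EZ against WT it was also -0.107 without EZ replicate 2, beside 0.997, and -1.29 with array weights, beside 1.72. With all genes covered in at least 1 mouse, the members' median was 0.763 beside 0 for KR against WT, 0.138 beside -0.574 for EZ against WT and -1.05 beside -0.177 for KE against KR, so that its order against all genes turned in each. For K4me3, 13 members entered with 13651 genes, the shares called were 0.103%, 0.0366%, 0.0733% and 0.0366%, and 1 member had an unadjusted p under 0.05 in each contrast (4.54%, 6.38%, 3.29% and 2.91% of all genes tested, in the same order). Without WT replicate 2 the counts for KR against WT, EZ against WT and KE against KR were 5 (8.89%), 1 (5.12%) and 2 (5.90%). With array weights they were 6 (12.2%), 2 (11.8%) and 3 (8.45%). With any other mouse left out they were 0 to 3, beside 2.32% to 12.1% of all genes tested.

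The members with an unadjusted p under 0.05 for K27me3 were *Gabrp* and *Grin2b*. *Gabrp* had 0%, 0% and 17.7% of its body under K27me3 in WT, 45.4%, 0% and 17.7% in EZ, 0% in each KR mouse and 33.4%, 31.4% and 25.2% in KE. All KE mice thus lay above all KR mice, by 30.0 percentage points (SE 10.2, limma unadjusted p = 0.015, adjusted p = 0.81), which also differ in their X and Y peaks. *Grin2b* had 9.61%, 4.95% and 11.7% in WT and 27.2%, 19.9% and 25.8% in EZ, a difference of 15.5 percentage points (SE 5.93, limma unadjusted p = 0.026, adjusted p = 0.81). The 3 EZ mice lay above the 3 WT mice. Both were named after their values were seen.

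The other genes of glutamate and GABA use did not share 1 state. Of 39 such autosomal genes, 20 had K4me3 at a TSS in all 12 mice and 15 in none, and 5 had K27me3 in all 12 and 16 in none. Their share with K4me3 in all mice, 51.3%, was near the 58.2% of all genes, and the shares of all genes were 31.9% with K4me3 in none, 3.28% with K27me3 in all and 66.7% with it in none. Of 8 genes for synthesis and clearance, 6 had K4me3 in all mice, among them *Glul* and *Glud1*, enzymes of general nitrogen metabolism, while *Gad2*, the enzyme that makes GABA at synapses, had K27me3 in all 12 and K4me3 in none. Of 11 transporters, *Slc17a6*, which loads glutamate into vesicles, had K27me3 in all 12, *Slc32a1*, which loads GABA, in 9, and the plasma membrane transporters *Slc1a1*, *Slc1a2* and *Slc1a3* had K4me3 in all 12. Of the GABA-B receptor genes, *Gabbr1* had K4me3 in all 12 mice and *Gabbr2* in none. Of 18 scaffold and auxiliary subunit genes, 9 had K4me3 in all 12, *Gphn*, *Dlg4* and *Homer1* among them, and *Grip1*, *Neto1* and *Cacng3* had K27me3 in all 12. *Grip1* and *Neto1* also had K4me3 in 11 mice each, and *Cacng3* in none. None of these genes passed an adjusted p of 0.05 in limma in any of the 4 contrasts, and 18 were tested for K27me3 over the body and 24 for K4me3.

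Markers of other cells in the tissue also differed between mice. Of 8 neuronal markers, 1 to 4 had K4me3 and 4 to 7 had K27me3 in a mouse, and *Snap25*, a gene of synaptic release, had K27me3 in all 12 mice and K4me3 in none. Of 9 islet markers 2 to 4 had K4me3, of 4 Schwann and glial markers 1 to 2, and of 4 duct markers 2 to 4. K27me3 was found at 4 to 6, 0 to 2 and 0 to 1 of them. Whether K4me3 at the receptor genes comes from these cells was not tested.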

How the data were processed

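The 24 lists analyzed give K27me3 and K4me3 peaks in 12 mice. Per the study's methods, alignment was by Bowtie2 to mm10, and the authors then ran HOMER findPeaks (histone mode) on each library with that mouse's input as background. The deposited score column holds 1 for every peak and was not used, so depth is unknown and intervals for counting error could not be given. The 12 input libraries were not analyzed here. The deposited positions were compared with GENCODE vM21. None of 617135 peaks passed a chromosome end. A gene was called when a peak overlapped 3 kb on either side of any annotated TSS by at least 1 bp, for both marks. The study's K27me3 window, from 100 kb upstream to 3 kb downstream, was an alternative. Values per mouse were compared by exact permutation tests. Percent coverage of genes covered in at least 3 mice was fitted with limma 3.58.1 (R 4.3.3, trend and robust) with Benjamini-Hochberg adjustment over all genes tested. Calls were made in Python 3.11.15. The code was tested on simulated data. The receptor genes were chosen by symbol, and genes given mouse by mouse were those that switched between genotypes, had K4me3 in at least 10 mice, had both marks in all mice of a genotype, or had the 5 highest K27me3 coverages. *Gabrp* and *Grin2b* were added for their unadjusted p. The members and lists were chosen with earlier results of these data known. Same-numbered mice were not treated as pairs. Alternatives were other windows, overlaps, widths, equal peak numbers, joined peaks, medians, a replicate block, transformed or weighted fits and each mouse left out. K27me3 peaks of at least 10 kb, both marks at the same TSS, long and CpG-rich background genes and the check of which TSS a K4me3 peak covers were added after seeing the data. Values of 5 members and the name of the KR allele are not reported here.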

Additional observations from a re-analysis of the deposited data

How the results depend on the processing

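The lists hold no signal, so depth could not be corrected, and with 3 mice a group the exact permutation tests cannot reach 0.05. Over all alternatives no member was called by limma, and members with K27me3 at a TSS stayed higher in KR than in WT (2.5 to 4.5 with each mouse left out), by 0.67 at the least, with equal numbers of the widest peaks. EZ minus WT was 0 with the window reaching 100 kb upstream, 0.33 with equal numbers and higher otherwise (1.17 to 3.17 with a mouse left out). KE minus KR for that count turned to 0.33 with 1 kb windows, 2 with equal peak numbers and 1 by medians (-1.5 to 1.5 with a mouse left out), and was -2.33 with the 100 kb window, -3.33 with peaks of at least 10 kb and -1.67 with peaks that touch no K4me3. Body coverage KR minus WT turned to -0.28 with equal numbers and -0.26 by medians (-2.54 to 2.57), EZ minus WT to -1.08 by medians (-0.75 to 4.20), and KE minus KR to 0.29 with equal numbers and 0.035 with peaks of at least 10 kb (-3.20 to -0.18). K4me3 counts KR minus WT became 0.67 with stricter widths and with equal numbers (-1.83 to 0.67), KE minus KR became 0 with both (1.17 to 2.83), and EZ minus WT was 0.5 to 3. With K4me3 peaks of at least 1 kb, 6 to 9 members per mouse had one. The 5 kb minimum removed no K27me3 peak. Both marks KR minus WT became -0.33 with 1 kb windows, 500 bp of overlap or a window reaching 100 kb upstream, and -1 by medians (-0.67 to 1), EZ minus WT became -0.33 with the 100 kb window (-0.17 to 1.33), and KE minus KR became -1 with stricter widths and -0.33 with equal numbers or peaks of at least 10 kb (-0.17 to 1.33). K27me3 switches between KR and WT fell to 0 with 1 kb windows. Without WT replicate 2 there were 2 for KR and 2 for EZ, and K4me3 switches were 2 for KR and 1 for EZ, *Grin3a* in both. The cause of these shifts was not tested. Deviations of same-numbered mice correlated at -0.378 to 0.258 for K27me3 and -0.689 to 0.551 for K4me3, and the labels name no shared litter or day. All 3 pairs were above 0.1 for K4me3 between KE and KR alone (0.551, 0.302 and 0.34), where the block gave an exact p of 0.25 for the members' count, the smallest that 3 pairs allow, and 7 calls in place of 10 among all genes. The replicate block cannot change a difference of means here. With it the exact p for KR minus WT (3.33 genes) was 0.25 in place of 0.1, and limma called no member.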

Other observations

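The 4 receptor genes on the X chromosome lie outside the rule. *Gria3*, an AMPA subunit gene, had K4me3 at a TSS in all 12 mice. K27me3 covered 13.0%, 73.6% and 49.8% of it in WT, 68.6%, 0% and 83.3% in EZ, 0% in each KR mouse and 88.2%, 96.2% and 69.7% in KE. *Gabra3*, an alpha subunit gene, had 84.8% to 93.7% in the 8 mice with 5637 or more K27me3 peaks on X and 0% in EZ replicate 2 and the 3 KR mice. *Gabre*, the gene of the epsilon subunit, had K4me3 in all 12 mice. K27me3 covered 42.6% and 26.6% of it in EZ replicates 1 and 3, 46.4% and 52.9% in KE replicates 1 and 2 and 0% in the other 8 mice, all 3 WT mice among them. In WT replicate 3 and KE replicate 3, K27me3 was called at a TSS of *Gabre* without covering its body. *Gabrq*, the gene of the theta subunit, had K27me3 over at least 33.7% of its length in the 8 mice with most peaks on X and 0% in EZ replicate 2 and the 3 KR mice.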
